A study of Mus musculus with 39 samples.

Results

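Interferon response genes are the genes that cells switch on after contact with interferon. The 39 genes described here were a listed set of such genes, given by name. Of these, 35 were measured, out of 12393 genes in all. For Oas1g, Ifi44 and Xaf1 the probe annotation at hand names no probe set, and Isg15 shares its only probe set with other genes, so these 4 were not analysed here.

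The study measured RNA of sorted cells from the bone marrow of adult mice on 39 Affymetrix expression arrays. The normal groups were 6 arrays of pro-B cells (B220+ CD43+ IgM- IgD-), 8 of pre-B cells (B220+ CD43- IgM- IgD-), 6 of immature B cells (B220+ CD43- IgM+ IgD-) and 3 of mature B cells (B220+ CD43- IgM+ IgD+). A further 16 arrays carried leukemic cells with the same surface markers as pre-B cells, in a series titled for MLL-AF4 leukemia. The description of 5 of these (A992, A1322, A1507, 270 and A46) names pIpC, a synthetic double-stranded RNA that makes cells release interferon, and that of the other 11 names none. The labels used here give no strain, exact age, Cre line, dose of pIpC or interval between pIpC and the sort, and they do not say that each normal array came from a different animal, so every p-value measures the spread between these samples.

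Type I interferons bind the receptor chains Ifnar1 and Ifnar2, whose kinases Tyk2 and Jak1 phosphorylate STAT2. With IRF9 it forms part of a complex that binds a DNA motif called the ISRE, while type II interferon (Ifng) acts at a motif called the GAS. Many of the induced proteins recognise double-stranded RNA, block viruses, or prepare peptides for display on MHC class I. In bone marrow, plasmacytoid dendritic cells are a strong source of type I interferon, carry B220 like B cells, and hold much Irf7 even at rest.

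The 2 motifs were looked for from 250 bases before to 50 after the start of each gene, in RefSeq sequences of the GRCm38.p6 build, which held 30 of the 39 members and 26 of the 35 measured ones. The ISRE, searched as GAAANNGAAA on both strands, lay in at least 1 window of 12 of the 26 measured members (46.2%), against 3.99% of all 27025 genes in the table. The GAS, searched as TTCNNNGAA, which reads the same on both strands, lay in 7 of the 26 (26.9%), against 9.55% of all genes. Igtp and Eif2ak2 held both, and in Igtp the GAS ends just before the ISRE begins. The stretches below lie upstream of the start of members on which the results turn; each is 5′ to 3′ on the gene's own strand, capitals mark the motif in either orientation, and the number before the colon is the position of its first base relative to the start.
Gbp2, ISRE, chr3:142620594-142620623, plus strand, -59: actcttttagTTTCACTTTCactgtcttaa
Gbp3, ISRE, chr3:142559989-142560018, plus strand, -45: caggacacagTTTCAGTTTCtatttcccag
Igtp, ISRE, chr11:58199512-58199541, plus strand, -34: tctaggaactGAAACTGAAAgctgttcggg
Igtp, GAS, chr11:58199501-58199529, plus strand, -45: aactagccatTTCTAGGAActgaaactga
Ifit1, ISRE, chr19:34640775-34640804, plus strand, -104: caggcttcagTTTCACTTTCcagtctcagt
Ifit1, ISRE, chr19:34640794-34640823, plus strand, -85: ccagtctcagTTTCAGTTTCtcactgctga
Ifit3, ISRE, chr19:34583363-34583392, plus strand, -156: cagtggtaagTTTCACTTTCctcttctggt
Ifit3, ISRE, chr19:34583397-34583426, plus strand, -122: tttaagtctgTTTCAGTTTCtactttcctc
Ifit2, GAS, chr19:34550444-34550471, plus strand, -241: catgggagcTTCCTGGAAgaatggataa
Rsad2, ISRE, chr12:26456553-26456582, minus strand, -120: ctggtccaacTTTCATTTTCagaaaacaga
Cxcl10, ISRE, chr5:92349083-92349112, minus strand, -213: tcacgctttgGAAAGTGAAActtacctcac
Stat2, ISRE, chr10:128270266-128270295, plus strand, -222: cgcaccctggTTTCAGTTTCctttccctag
Irf1, GAS, chr11:53769914-53769942, plus strand, -90: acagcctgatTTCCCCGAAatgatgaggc
Psmb8, GAS, chr17:34198088-34198116, plus strand, -97: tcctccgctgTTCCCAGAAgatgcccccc

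A match is a description of these letters and not evidence of binding. Among these stretches, as printed, Gbp2, Ifit1 and Ifit3 share the 10 bases TTTCACTTTC, and Gbp3, Ifit1, Ifit3 and Stat2 share TTTCAGTTTC. Read on the opposite strand, the ISRE of Cxcl10 has the same bases as the former, and that of Igtp the same as the latter.

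Values are log2 RMA intensities. A member was called where limma's adjusted p, by Benjamini-Hochberg over all 12393 genes, was under 0.05, and all adjusted p-values below are of this kind. The array medians spanned 6.36 to 6.76. Oasl2 and Cxcl10 lay near background, which here means a mean over the 39 arrays in the lowest 25% of genes (below 4.34), and low values of these 2 understate differences. Of the 12 measured B-lineage markers, 3 rose and 6 fell from pre-B to immature B, among them Ms4a1 (CD20), which rose, and Rag1 and Rag2, of antigen receptor rearrangement, which fell. In leukemic against pre-B cells 1 was higher and 5 were lower, 14 of the 16 leukemic arrays had a B-lineage mean below every pre-B array, and Cd79a was between 7.0 and 12.04 on the leukemic arrays. The samples' accession numbers form 2 runs of 22 and 17 arrays, with every mature B array in the later run, and this split was treated as a possible batch that no label names. The 3′ minus 5′ signal of the actin controls, a sign of RNA or amplification quality, was 1.29 ± 0.084 (SD) in the earlier run and 0.80 ± 0.139 in the later one.

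Some arrays stood apart. The description of leukemic array 116 speaks of pre-B cells of a knock-in mouse and does not state leukemia, although its cell type label does. Leukemic array 122 had the lowest mean of 12 B-lineage markers of all leukemic arrays, 6.83 against up to 10.71, and the highest means of 13 myeloid markers (9.76) and 10 plasmacytoid dendritic cell markers (8.96). Counts for leukemic cells are therefore given with and without both arrays. Immature B arrays 2 and 3, pro-B arrays 1 and 3, and pro-B arrays 4 and 6 were closer to each other (SD of their gene-by-gene difference 0.212, 0.249 and 0.267) than any other pair of normal arrays of a group. No label says that they share RNA, so they were kept as separate samples, and the counts with each pair averaged are given where they differ.

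The members were low in pre-B cells and higher in the stages on either side. The mean over the 35 members was 7.74 ± 0.38 (SD, n = 6) in pro-B cells, 6.94 ± 0.21 (n = 8) in pre-B cells, 7.87 ± 0.27 (n = 6) in immature B cells and 8.09 ± 0.44 (n = 3) in mature B cells. In leukemic cells it was 7.38 ± 0.88 (n = 16), with arrays from 6.16 to 9.13. Every immature and mature B array lay above every pre-B array, whose highest was 7.34. Of the leukemic arrays, 8 lay above and 5 below the whole pre-B range.

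**Figure D1:**
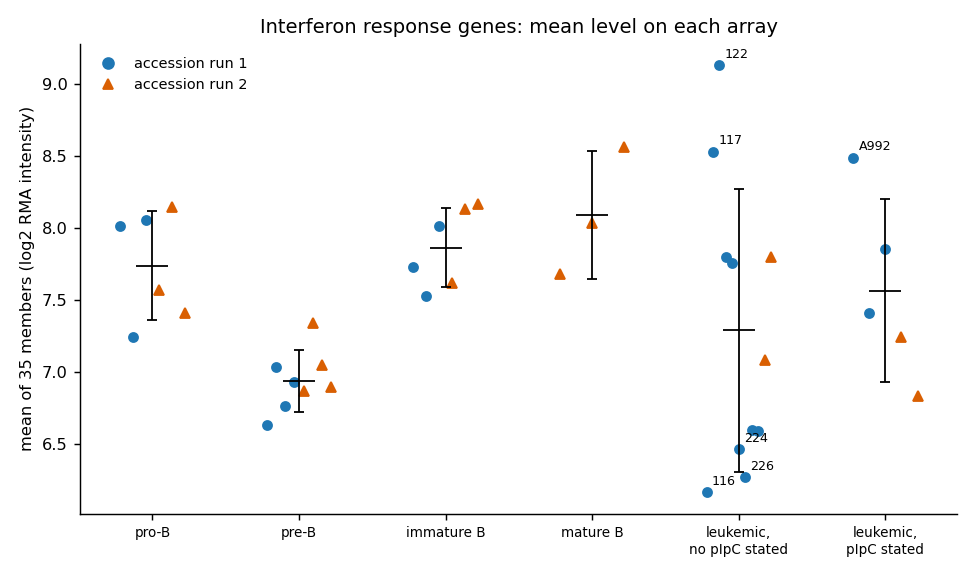
Mean log2 RMA intensity of the 35 measured members on each of the 39 arrays, by group, with the leukemic arrays split by whether pIpC is in the description; bars are the group mean ± SD, and circles and triangles mark the 2 accession runs. Pre-B arrays lie between 6.63 and 7.34, and leukemic arrays spread from 6.16 to 9.13.

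From pro-B to pre-B cells, 17 of the 35 members fell and 0 rose, with a median difference of -0.61. Among all genes, 15.7% were called lower and 17.9% higher in this step, and their median difference was 0.11. The fall was largest for Gbp8, Usp18, Lgals3bp, Mx1 and Irf7, which with Psmb8 were the 6 members whose groups did not overlap, as was so for 7.08% of all genes with pre-B lower and 3.74% with pre-B higher. The differences of Ifit1 and Ifit3, of a family that binds viral RNA, were 0.00 and 0.02. Ifit1 averaged 4.41 in both groups, close to the background level of 4.34, so a fall of Ifit1 may be understated. Lower values could still be read, as Ifit1 was at 3.36 on leukemic array A46.

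Among the transcription factors, 3 of 4 fell. Irf7, the factor that amplifies interferon production, was at 8.11, 6.58, 8.34, 7.84, 8.94 and 7.27 on the pro-B arrays and at 4.86 to 6.0 (median 5.68) on the pre-B arrays. All 8 pre-B arrays lay below every pro-B array, and the difference was -2.23 (SE 0.32, adjusted p = 8.63e-06). Stat2 and Irf9, subunits of the ISRE-binding complex, differed by -0.85 (adjusted p = 0.00901) and -0.62 (adjusted p = 0.026). Irf1, the factor that serves both types of interferon, was not called at -0.29.

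Usp18, the protease that removes ISG15 from proteins and damps the receptor, fell by 2.76 (SE 0.35, adjusted p = 1.74e-06). It lay between 7.48 and 9.0 on the pro-B arrays and between 4.23 and 6.75 on the pre-B arrays. Trim30a fell by 0.75, and Trim25, the ubiquitin ligase that activates RIG-I, was not called. Of the 7 sensors and RNA-binding proteins, Ifih1 (MDA5) and Dhx58 (LGP2) fell and the other 5 were not called. Zbp1 differed by -0.21, Adar by -0.55 and Oasl2 by -0.79 (adjusted p = 0.0588). Ifih1 kept its call under 14 of 25 alternatives and Dhx58 under 12 of 25. With the probe sets of a gene averaged, Dhx58 was not called (-0.14, adjusted p = 0.296) and Eif2ak2 was lower (-0.61, adjusted p = 0.00809).

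Mx1, a dynamin-like GTPase that blocks influenza viruses, was at 10.40, 8.81, 10.39, 8.53, 10.11 and 8.50 on the pro-B arrays. On the pre-B arrays it lay between 6.34 and 7.71 (median 7.11), without overlap. The difference was -2.44 (SE 0.34, adjusted p = 7.54e-06). Lgals3bp, a secreted galectin-binding protein, fell by 2.53 (SE 0.42, adjusted p = 6.9e-05), and Ifit2 and Ifi35 fell by 0.77 and 0.55. Rtp4 at -0.91 (adjusted p = 0.0767) and Rsad2 (viperin) at -0.49 were not called.

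Among the interferon-inducible GTPases, which act on the vacuoles of intracellular microbes, 4 of 7 fell. Gbp8 lay between 8.05 and 9.66 on the pro-B arrays and between 2.94 and 5.48 on the pre-B arrays. Its difference of -4.76 (SE 0.47, adjusted p = 4.76e-08) was the largest of any member in this step. Gbp2 fell by 1.01 (adjusted p = 0.0212), Igtp by 0.79 (adjusted p = 0.0084) and Ifi47 by 0.64, whereas Gbp3 differed by 0.04 and Iigp1 by -0.64 without a call. Of the antigen-processing genes, the immunoproteasome subunit Psmb8 fell by 0.66 (SE 0.09, adjusted p = 6.28e-06) and the peptide transporter subunit Tap2 by 0.47, while Tap1 and Psmb9 were not called. The chemokine Cxcl10 differed by -0.28.

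Markers of other cells moved with this step. The mean of the 10 plasmacytoid dendritic cell markers fell by 2.35, from between 10.18 and 11.72 in pro-B cells to between 6.94 and 9.33 in pre-B cells, and 8 of the 10 were called lower and 1 higher. The mean of the 13 NK and T cell markers fell by 3.07, from 7.84 to 9.41 down to 5.22 to 5.90, with 12 called lower, and that of the 13 myeloid markers fell by 1.22, with 10 called lower. Of the 13 myeloid markers, 12 had a negative and 1 a positive difference, and Itgam (CD11b) was near background in both groups. The part of these markers in the fall of the members was not tested, and fewer cells of a type and less RNA per cell cannot be told apart in such bulk samples.

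The count was 12 within the earlier accession run alone, 7 within the later one, and 12 with the closest array pairs averaged. All genes called lower numbered 1361, 1252 and 1484 in these settings, against 1948 in the fit of all normal arrays. Gbp8, Usp18, Lgals3bp, Mx1, Irf7 and Psmb8 kept their call under every alternative that measured them.

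**Figure D2:**
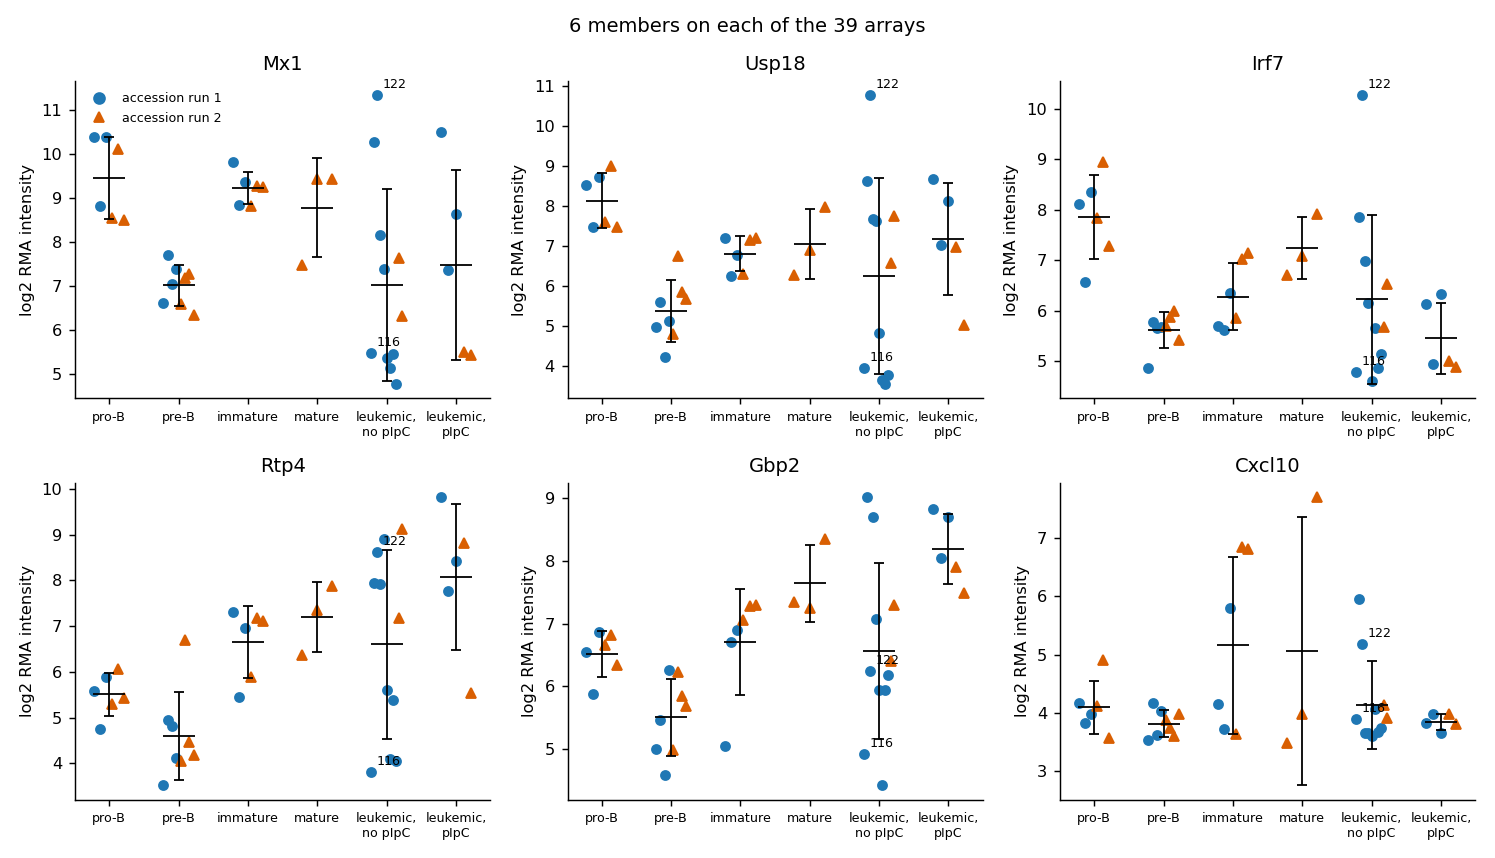
Log2 RMA intensity of Mx1, Usp18, Irf7, Rtp4, Gbp2 and Cxcl10 on each array, by group; bars are the group mean ± SD, circles and triangles mark the accession runs, and leukemic arrays 116 and 122 are labelled. Mx1, Usp18 and Irf7 are high in pro-B cells, low in pre-B cells and span their widest range in leukemic cells, where array 122 is the highest of all 3.

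From pre-B to immature B cells, 21 of the 35 members rose and 0 fell, with a median difference of 0.79. Among all genes 10.9% were called higher and 8.7% lower, with a median difference of -0.06. Zbp1, Oasl1, Ifit1, Ifit3, Parp14, Adar, Oasl2, Irf1, Rtp4 and Irgm1 rose here and were not called in the step from pro-B cells. The difference between the 2 steps was not tested. Zbp1, Adar, Oasl2, Irf1, Rtp4 and Irgm1 had lower means in pre-B than in pro-B cells, without a call. Oasl1 and Ifit1 had pro-B means of 4.28 and 4.41, about the background level of 4.34, so a fall from pro-B cells may be understated. Lower values could still be read, at 3.10 and 3.36 on leukemic array A46. For 12 members the groups did not overlap, and the same was so for 5.05% of all genes with immature B higher and 4.62% with it lower.

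Of the 7 sensors and RNA-binding proteins, 5 rose. Zbp1, a sensor of Z-form nucleic acid that can start necroptosis, lay between 8.01 and 8.32 on the immature B arrays and between 5.29 and 6.96 on the pre-B arrays. Its difference was 1.96 (SE 0.23, adjusted p = 9.53e-07). Oasl1, of the oligoadenylate synthetase-like family, rose by 1.82 (SE 0.28, adjusted p = 3.56e-05), from 3.69 to 5.14 on the pre-B arrays up to 5.72 to 7.27, again without overlap. Oasl2, Dhx58 and Adar rose by 1.46, 1.35 and 0.79, and Ifih1 and Eif2ak2 (PKR) were not called.

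Mx1 rose by 2.22 (SE 0.34, adjusted p = 3.39e-05), to 9.82, 8.84, 9.37, 8.82, 9.28 and 9.25, all above every pre-B array. Ifit3 and Ifit1 rose by 1.63 (SE 0.28, adjusted p = 0.00012) and 1.08 (adjusted p = 0.0106). Rtp4, a chaperone of receptor proteins, rose by 2.05 (SE 0.40, adjusted p = 0.000429), with 4 of the 6 arrays above every pre-B array. Parp14 and Ifi35 rose by 1.02 and 0.70. Rsad2 (1.66, adjusted p = 0.0506) and Lgals3bp (0.78, adjusted p = 0.225) were not called, nor was Ifit2 at -0.16.

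Of the transcription factors, Irf9 (0.94, SE 0.21, adjusted p = 0.00159) and Irf1 (0.48, adjusted p = 0.0333) rose. Irf7 (0.66, adjusted p = 0.162) and Stat2 (0.60, adjusted p = 0.0803) did not pass. Irf7 on the immature arrays, between 5.62 and 7.14, stayed mostly below the pro-B range of 6.58 to 8.94, whereas Mx1 lay within its pro-B range. Usp18 rose by 1.44 (SE 0.35, adjusted p = 0.0039) and Trim30a by 0.68.

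Igtp rose by 1.56 (SE 0.22, adjusted p = 7.48e-06), with all 6 arrays above every pre-B array, and Gbp2, Ifi47 and Irgm1 rose by 1.20, 0.85 and 0.76. Gbp8 at 0.88 was not called, and at 3.49 to 6.16 no immature B array reached the pro-B range. Psmb8 rose by 0.64 (SE 0.09, adjusted p = 1.13e-05) and Tap2 by 0.45, while Tap1 missed the threshold (0.42, adjusted p = 0.0627). Cxcl10 differed by 1.34 (adjusted p = 0.0887).

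The members not called in this step included several that split the immature B arrays. Cxcl10 was at 4.14, 3.71 and 3.63 on arrays 4, 5 and 1, and at 5.80, 6.85 and 6.81 on arrays 6, 2 and 3. Rsad2 was at 6.84, 6.88 and 5.96 on the first 3 arrays and at 9.44, 8.85 and 8.71 on the last 3, and Gbp8 and Lgals3bp were also higher on the same arrays. Mature B array 3 showed the same: Cxcl10 was at 7.71 there against 3.49 and 3.98 on the other 2, and Rsad2 at 9.86 against 6.25 and 6.73. Irf7, Ifih1 and Ifit2, also not called, were higher on each of immature arrays 6, 2 and 3 than on arrays 4, 5 and 1. So was Oasl2, which was called, at 5.425 to 5.806 against 3.974 to 4.825. Mx1, Zbp1 and Igtp showed no such split.

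The same 3 immature arrays had the higher marker means. The plasmacytoid dendritic cell markers averaged 8.66 to 8.93 on them and 7.40 to 7.67 on the other 3, and the erythroid markers 7.07 to 7.13 against 5.74 to 6.16. Over the whole step, the myeloid mean rose by 1.07 (5 of 13 markers called higher), the erythroid mean by 0.89 (3 of 7), and the NK and T cell mean fell by 0.89, while 2 of the plasmacytoid dendritic cell markers rose and 2 fell. On mature B array 3 the erythroid, myeloid and plasmacytoid dendritic cell means were 7.73, 10.80 and 8.39, all above those of the other 2 mature B arrays, which were at most 6.09, 9.92 and 7.58. The part of these markers in the members' values was not tested. The count of members was 17 and 14 within the 2 accession runs and 18 with the closest pairs averaged. All genes called higher numbered 679, 1003 and 1142 in these settings, against 1348 in the fit of all normal arrays. Zbp1, Oasl1, Ifit3, Igtp and Psmb8 kept their call under every alternative that measured them.

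From immature to mature B cells, 1 member rose and 0 fell, with 1.96% of all genes called higher and 3.29% lower. Gbp3 was at 6.34, 8.33, 7.65, 8.32, 7.96 and 8.18 on immature B arrays 4, 5, 6, 1, 2 and 3 and at 8.74, 8.92 and 9.32 on the mature B arrays. The difference was 1.20 (SE 0.35, adjusted p = 0.0471). It was 0.91 (adjusted p = 0.0591) without immature B array 4, and 0.84 (adjusted p = 0.053) within the later run, which holds all mature B arrays. The largest uncalled differences were 0.97 for Irf7, 0.95 for Ifit3, 0.93 for Gbp2 and -0.75 for Gbp8. Mx1 was at 7.48 on mature array 1 and at 9.44 and 9.43 on the other 2.

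**Figure D3:**
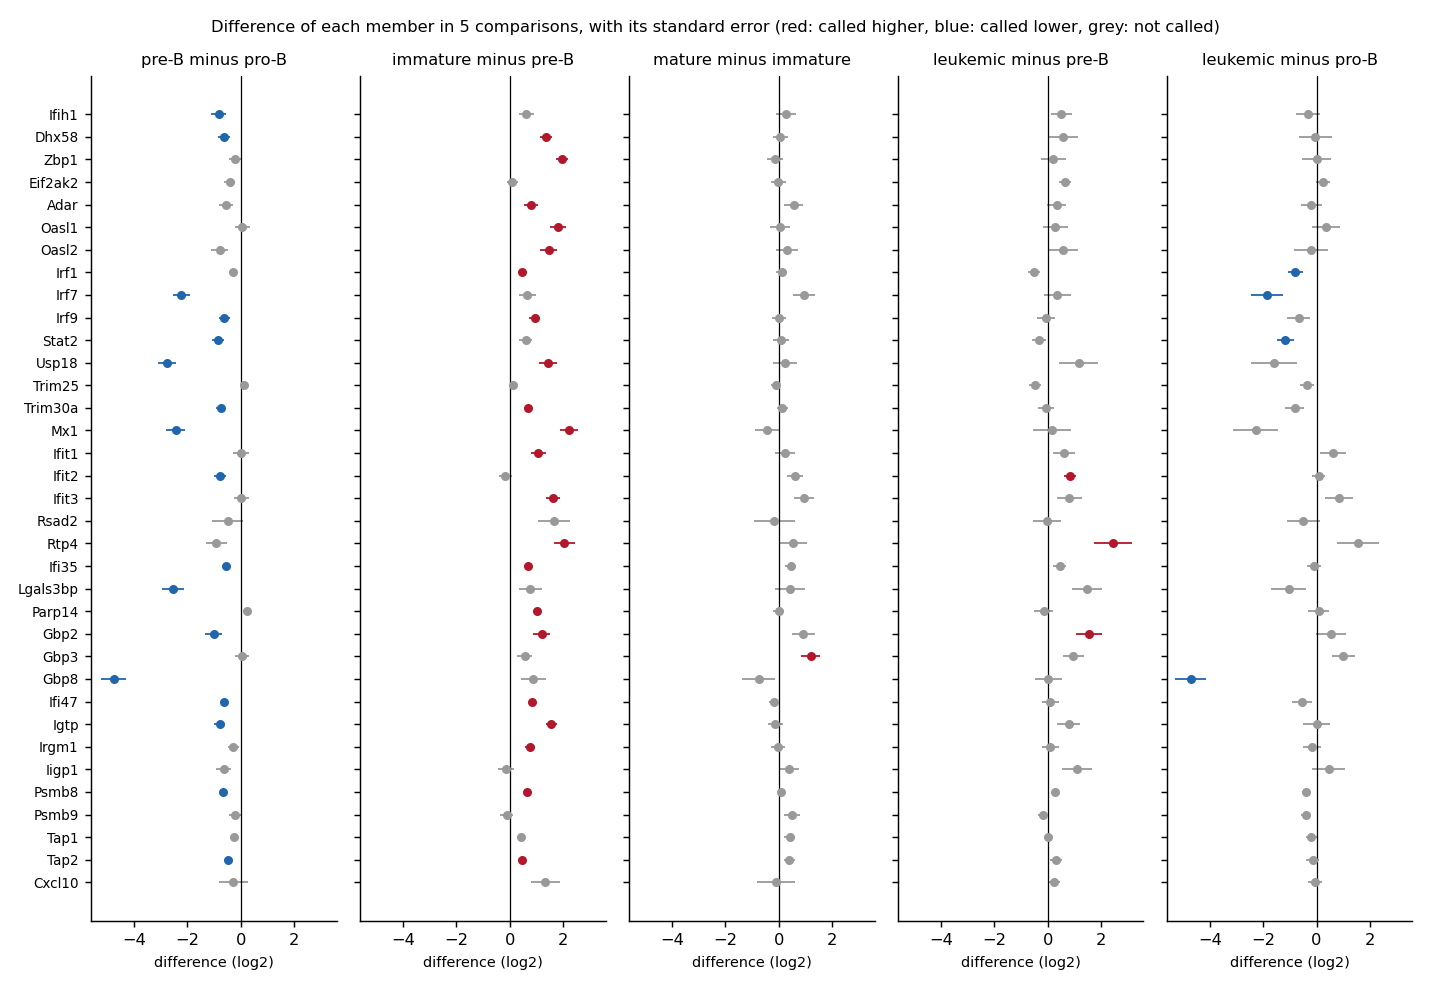
Difference in mean log2 intensity of each of the 35 members in 5 comparisons, with its standard error, by role from sensors at the top to Cxcl10 at the bottom; red members were called higher, blue lower and grey not called. The pre-B step has 17 blue members, the immature B step 21 red ones, and the leukemic comparisons 3 red and 4 blue.

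Leukemic cells were then compared with pre-B cells, which share their surface markers. Of the 35 members 3 rose, about the share of all genes called higher (8.5%), and 0 fell, beside 7.53% of all genes. The median difference of the members was 0.32. These 3 were Rtp4, Gbp2 and Ifit2, and for none of the 35 members were the groups without overlap, which was so for 0.75% of all genes with leukemic cells higher and 0.799% with them lower. The range on the leukemic arrays was wide for most members, and a large mean difference such as that of Usp18 did not pass.

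Rtp4 was lowest at 3.81 on array 116 and highest at 9.82 on array A992, with a median of 7.85, against 3.52 to 4.94 on 7 pre-B arrays and 6.71 on pre-B array 2. Of the 16 leukemic arrays, 10 lay above every pre-B array, and the mean difference was 2.46 (SE 0.70, adjusted p = 0.016). A second probe set for Rtp4 gave 0.93. Gbp2 spanned 4.42 to 9.02 (median 7.18) against 4.58 to 6.26, with 10 arrays above and 1 below the pre-B range, and differed by 1.56 (SE 0.50, adjusted p = 0.0313). Ifit2 spanned 6.78 to 8.46 (median 7.51) against 5.84 to 7.45, with 8 arrays above, and differed by 0.84 (SE 0.23, adjusted p = 0.0107).

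The uncalled members with the largest differences were Lgals3bp (1.49, adjusted p = 0.0721), Usp18 (1.16, adjusted p = 0.352), Iigp1 (1.10, adjusted p = 0.216) and Gbp3 (0.97, adjusted p = 0.105). Mx1 differed by 0.16 (SE 0.71, adjusted p = 0.933), with 5 leukemic arrays above and 8 below every pre-B array. Of the transcription factors, Irf7 differed by 0.37, Irf9 by -0.06, Stat2 by -0.32 and Irf1 by -0.50 (adjusted p = 0.134), and on 11 arrays Irf1 lay below every pre-B array. Zbp1 (0.21), Rsad2 (0.00), Psmb8 (0.28), Tap1 (0.03), Igtp (0.79), Ifit1 (0.62), Ifit3 (0.82) and Cxcl10 (0.23) were not called.

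Without arrays 116 and 122 the count was 5: Rtp4 (2.58, adjusted p = 0.0079), Gbp2 (1.77), Ifit2 (0.81), Lgals3bp (1.34, adjusted p = 0.0435) and Eif2ak2 (0.68, adjusted p = 0.025). All genes called higher then numbered 1105, against 1054 with both arrays. Within the earlier accession run Ifit2 alone passed, at 1.17, and Rtp4 and Gbp2 differed by 2.52 (adjusted p = 0.153) and 1.67 (adjusted p = 0.231). Within the later run Gbp2 passed at 1.59 and Trim25 was lower (-0.79, adjusted p = 0.000563), while Rtp4 differed by 2.81 (adjusted p = 0.0527) and Ifit2 by 0.40 (adjusted p = 0.428). The count was also 5 without array 226 and 5 without array 227. A test of whether the leukemic against pre-B difference itself changed between the runs called 0 members, as it called 0% of all genes, with 0 members at an unadjusted p under 0.05. The later run held 4 leukemic arrays, so this does not show that the runs were alike: 26 of the 35 members had a lower difference in the later run, and the member median was 0.53 in the earlier run and 0.08 in the later one. In this comparison the plasmacytoid dendritic cell mean was lower by 1.57 (6 of 10 markers called lower), the myeloid mean by 1.56 (5 of 13) and the B-lineage mean by 0.78.

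Against pro-B cells, 4 members were lower in leukemic cells and 0 higher, beside 7.63% of all genes called lower and 8.11% higher, whose median difference was 0.13. Gbp8 lay between 2.70 and 7.07 on the leukemic arrays, all 16 of them below every pro-B array, and differed by -4.73 (SE 0.58, adjusted p = 3.65e-06). Irf7 differed by -1.86 (SE 0.60, adjusted p = 0.0377), with 13 arrays below every pro-B array and array 122, at 10.26, above them all. Stat2 differed by -1.17 (SE 0.31, adjusted p = 0.0164) and Irf1 by -0.79 (SE 0.27, adjusted p = 0.0489). Mx1 at -2.29 (adjusted p = 0.062), Usp18 at -1.60, Lgals3bp at -1.04 and, in the other direction, Rtp4 at 1.56 and Gbp3 at 1.01 were not called.

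This comparison and the previous one share the 16 leukemic arrays. Without arrays 116 and 122, 7 members were lower: Gbp8 (-4.77), Mx1 (-2.46), Irf7 (-2.08), Stat2 (-1.27), Irf1 (-0.75), Trim30a (-0.73) and Psmb8 (-0.43). All genes called lower then numbered 1217, against 945 with both arrays, and those called higher 1506, against 1005. With the closest pro-B pairs averaged Gbp8 alone passed, as it did within the earlier run and without pro-B array 2, 4 or 6. With the pairs averaged 476 of all genes were called lower and 111 higher, and Irf7 differed by -1.84 (adjusted p = 0.14). The count was 2 without pro-B array 1 or 3 or without leukemic array A1322, 224, 227 or 228. All 10 plasmacytoid dendritic cell markers, 8 of 13 myeloid and 11 of 13 NK and T cell markers were called lower here, and their part was not tested.

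**Figure D4:**
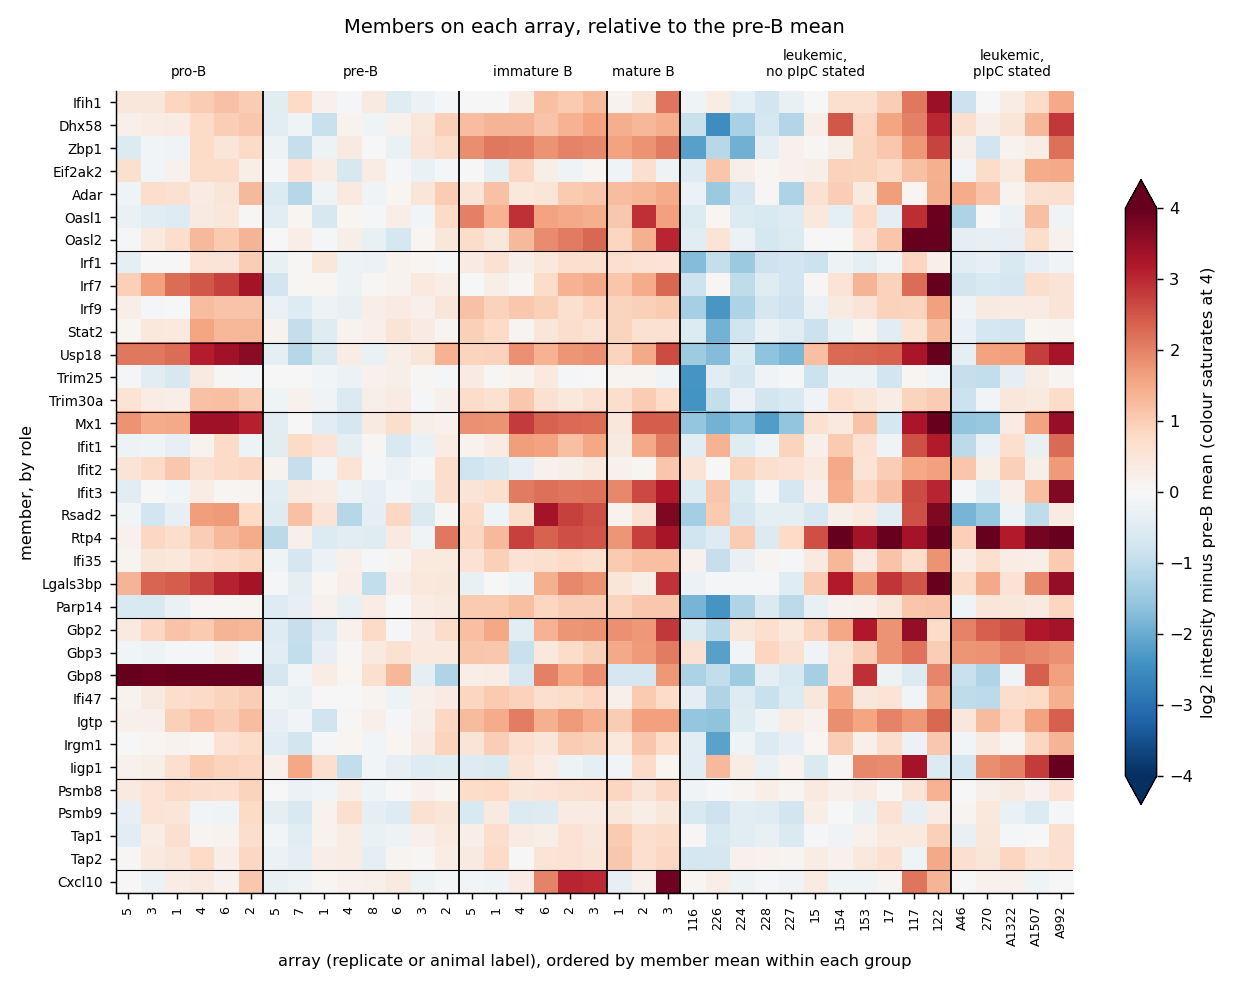
Level of each member (rows, by role) on each of the 39 arrays (columns, ordered by the member mean within each group), as log2 intensity minus the pre-B mean, with colour saturating at 4. Leukemic arrays with no pIpC stated run from 116, with 16 of 35 members below the whole pre-B range, to 122, with 30 above it. Those with pIpC stated form a separate group, from A46 to A992.

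The leukemic arrays differed widely from each other. Array 122 had 30 of the 35 members above every pre-B array and 0 below, array 117 had 28 above, and array A992 had 26. At the other end, array 226 had 20 members below every pre-B array, array 116 had 16, and arrays 224 and 227 had 12 each. Array 122 held the highest leukemic value of 19 members, A992 of 7 and 117 of 4.

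The arrays with high levels did not show the same members. Array 122 had the highest Mx1 (11.34), Usp18 (10.77) and Irf7 (10.26), but Gbp2 at 6.24 and Iigp1 at 3.78. Array A992 had the highest Iigp1 (8.89) with Mx1 at 10.51, but Irf7 at 6.12 and Oasl2 at 3.68. Oasl2 was at 8.45 on array 122 and 7.90 on array 117 and at most at 4.62 on the other 14, and Cxcl10 was at 5.96 on array 117, 5.18 on array 122 and at most at 4.14 elsewhere. Array 117 had the highest Gbp2 (9.02) and Gbp3 (9.41), and its B-lineage marker mean was 10.30, inside the leukemic range. Its NK and T cell marker mean of 6.55 lay above every pre-B array, as did those of arrays A1507 (7.01), 153 (6.38) and 122 (6.13). The plasmacytoid dendritic cell mean of array 117 was 7.73.

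The median SD of the members was 1.11 over the leukemic arrays and 0.46 over the pre-B arrays, against 0.43 and 0.31 over all genes. In 34 of the 35 members the leukemic SD exceeded the pre-B SD, as in 73.92% of all genes, and Psmb9 was the exception. Usp18 (2.17), Mx1 (2.12) and Rtp4 (2.01) varied most. Psmb8, Psmb9 and Tap1, of antigen processing, had leukemic SDs of 0.35, 0.43 and 0.45. Without arrays 116 and 122 the median SD of the members was 0.94, and without 117 and 122, the arrays farthest from the median member mean, it was 0.85.

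**Figure D5:**
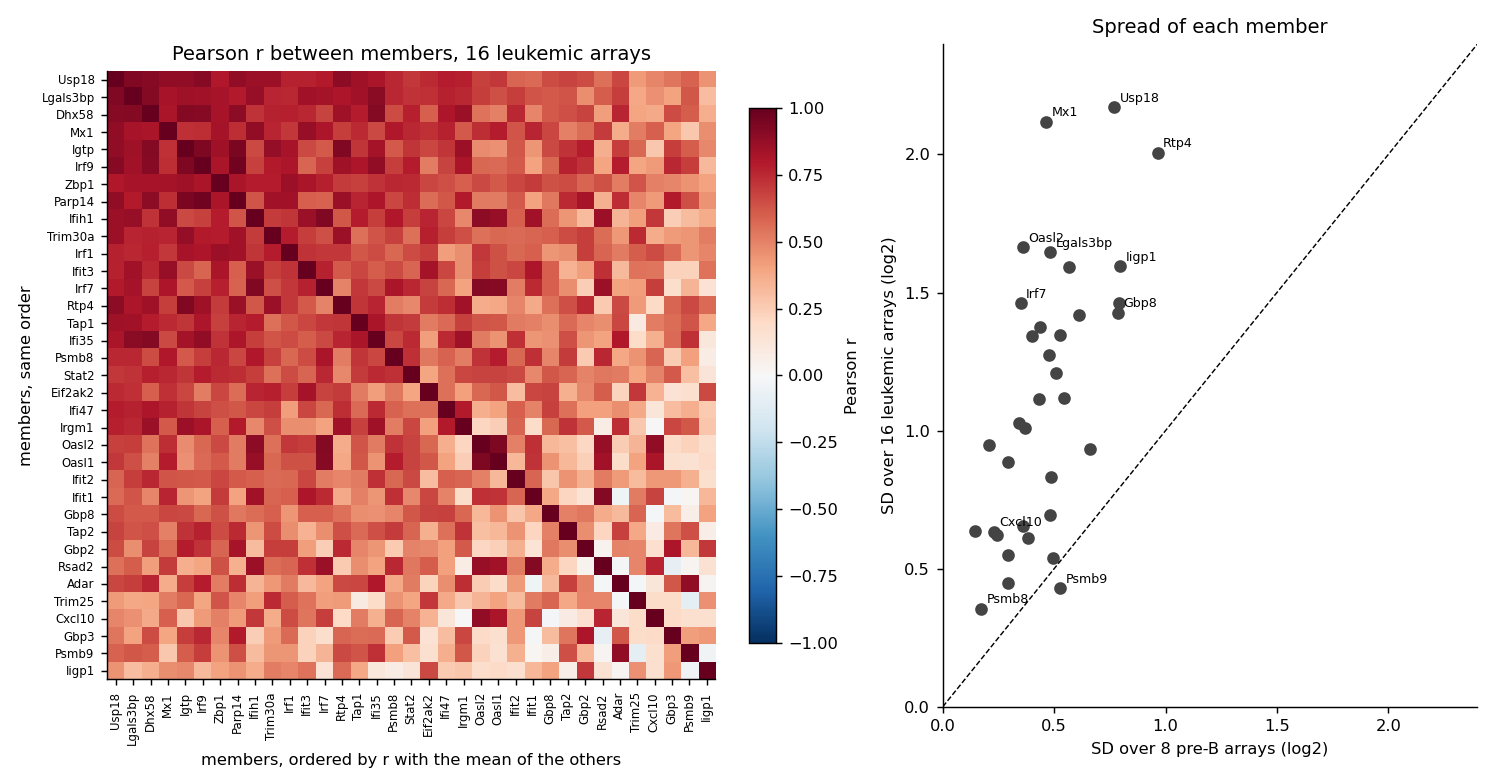
Left, Pearson r between each pair of the 35 members over the 16 leukemic arrays, with members ordered by their r with the mean of the others; right, the SD of each member over the leukemic arrays against its SD over the 8 pre-B arrays, with the line of equal SD. The median r is 0.61, Usp18 heads the order and Iigp1 ends it, and every member except Psmb9 lies above the line.

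Members varied together across the leukemic arrays, as a description with no test. The median Pearson r over the 595 pairs of members was 0.61, and 66.72% of pairs exceeded 0.5, against a median of -0.01 and 11.51% over all pairs of genes. It was 0.66 with each accession run centred on its own mean, 0.55 without arrays 116 and 122 and 0.53 without 117 and 122. Over the normal arrays, each centred on its stage, it was 0.34. All values of an array share its RNA and its normalization.

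Usp18 followed the mean of the other members most closely (r = 0.96), then Lgals3bp (0.93), Dhx58 (0.92), Mx1 (0.91) and Igtp (0.90). Iigp1 (0.44), Psmb9 (0.49), Gbp3 (0.53) and Cxcl10 (0.54) did so least. Some members paired more closely with each other: Parp14 with Irf9 (0.97), Oasl1 with Oasl2 (0.93), Ifit1 with Rsad2 (0.92), Oasl2 with Cxcl10 (0.89) and Gbp2 with Gbp3 (0.80). Near-identical copies in the Gbp, Ifit, Oasl and Trim30 families can share probes, so values of single members of these families are uncertain.

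The 10 genes outside the set whose levels were most like the member mean over the 16 leukemic arrays were Tapbp (r = 0.94), Oas1a (0.92), Mx2 (0.92), Irgm2, Parp9, Bst2, Oas3, Sp100, Helz2 and Isg20 (0.87). Of these, 9 were in the lists of other interferon pathway genes used here and Helz2 was in none. Over all 12358 other genes the median r was -0.07, and 194 exceeded 0.7. The mean of the plasmacytoid dendritic cell markers had r = 0.59 with the member mean, that of the NK and T cell markers 0.55, the myeloid markers 0.42, the erythroid markers -0.23 and the B-lineage markers -0.51. Without arrays 116 and 122 these were 0.29, 0.45, 0.23, -0.07 and -0.22.

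The 5 leukemic arrays with pIpC in the description were compared with the other 11. No member was called, and 0% of all genes were; at an unadjusted p under 0.05, limma gave 2 members (Gbp2 and Gbp3), 410 genes higher and 193 lower. The member mean was 7.57 ± 0.63 (n = 5) with pIpC and 7.29 ± 0.98 (n = 11) without, and the order differed between the accession runs. Within the earlier run (3 against 9 arrays) 29 of the 35 members were higher with pIpC, with a median difference of 0.58, and within the later run (2 against 2) 7 were, with a median of -0.27. Without array A992 the median over both runs fell from 0.21 to 0.03. The highest 2 of the 16 arrays, 122 and 117, had no pIpC in their description. Mx1 differed by 0.46, and Rsad2, Oasl2 and Irf7 were lower with pIpC, by -1.23, -0.91 and -0.77, none with an unadjusted p under 0.05.

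The 7 GTPases of the set all had positive differences with pIpC over both runs together and within the earlier run, but only Gbp2 and Gbp3 had within the later one, where the median of the 7 was -0.23. Gbp2 was at 8.82, 8.04, 8.70, 7.91 and 7.48 on A992, A1322, A1507, 270 and A46, and between 4.42 and 9.02 on the other 11. The difference was 1.63 (SE 0.61), with an unadjusted p = 0.0153 and adjusted p = 0.933 in limma. Gbp3 was at 9.06, 9.24, 9.15, 9.03 and 8.99 on the same arrays and between 5.08 and 9.41 on the others, with a difference of 1.30 (SE 0.48, unadjusted p = 0.0145, adjusted p = 0.933 in limma). Rtp4 (1.47) and Iigp1 (1.45) had the next largest differences. The mean of the myeloid markers was also higher with pIpC, by 1.14, at 7.23 to 8.84 against 5.10 to 9.76, and its part in these values was not tested.

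Other genes of the pathway were counted from 4 lists with 56 measured genes. From pro-B to pre-B cells 24 fell and 3 rose, beside 15.7% of all genes called lower and 17.9% higher. Both chains of the type I receptor fell, Ifnar2 from 10.23 to 8.33 (-1.90, SE 0.33, adjusted p = 9.05e-05) and Ifnar1 by 1.05 (adjusted p = 0.000259). Among genes that lead to interferon production, Tlr7, the endosomal sensor of single-stranded RNA, fell by 3.79. Bst2 (tetherin), which also marks plasmacytoid dendritic cells, Gbp6 and Ifitm3 fell by 3.37, 2.98 and 2.26, and Irf8 by 2.0. Cmpk2, Nmi and Irf2 rose by 0.65, 0.38 and 0.34.

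From pre-B to immature B cells 26 of the 56 rose, led by Ifitm3 (2.45), Cxcl9 (1.86), Isg20 (1.80) and Ifng (1.73), and Socs1, an inhibitor of the kinases, fell by 0.31. Among all genes 10.9% were called higher and 8.7% lower in this step. Ifnar1 rose by 0.70 (adjusted p = 0.0126), and Ifnar2 was not called. In mature B cells, Sting1, Ddx60, Jak1 and Jak2 rose, by 0.97, 0.81, 0.78 and 0.68. These were 4 of the 56, and 0 fell, beside 1.96% of all genes called higher and 3.29% lower. The type I interferon genes Ifnb1, Ifna2 and Ifna4 had group means between 2.46 and 3.46, near background, and none of them was called. Ifna1 was also measured and is not described here. Ifng, the type II interferon, was called higher in immature B cells, as given above.

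In leukemic against pre-B cells 2 of the 56 rose and 4 fell, beside 8.5% of all genes called higher and 7.53% lower. Gbp7 rose from 7.64 to 10.36 (2.72, SE 0.38, adjusted p = 9.81e-06), and Socs3, a feedback inhibitor, by 1.503. Samhd1, which depletes nucleotides, fell by 1.75, Sp100 by 1.31, Irf2 by 0.60 and Ifng by 0.41. Against pro-B cells 13 were lower and 1 higher, beside 7.63% of all genes called lower and 8.11% higher. Ifnar2 and Ifnar1 differed by -1.495 (adjusted p = 0.013) and -0.97 (adjusted p = 0.0102), Tlr7 by -4.0 and Bst2 by -3.68.

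Among the 12 measured members with an ISRE in the window, 5 were lower in pre-B than in pro-B cells and 6 were higher in immature B cells than in pre-B cells. Among the 14 whose windows held none, these counts were 7 and 8, and among the 9 measured members without a window in the table they were 5 and 7. For the GAS, 4 of the 7 members that held it were lower in pre-B cells and 5 were higher in immature B cells, against 8 and 9 of the 19 whose windows held none. Among all genes, 15.7% were lower and 10.9% higher in these steps. These counts are a description of the windows searched.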

How the data were processed

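Each of the 39 deposited columns holds an intensity for every probe set. The authors obtained it with RMA (version not given), according to the submitters' processing notes. Per the labels' protocols, RNA was extracted with Trizol and 20 ng was amplified with NuGEN Ovation. The intensity scale was linear (array medians 82.0 to 108.71), so values were taken to log2 with no offset; arrays have no read depth, and their number limits the precision. Of 22690 probe sets, 64 controls, 691 with several gene symbols and 1555 with none were left out, and for each of the 12393 genes the probe set brightest on average over 39 arrays was kept. Of the members, 11 had several probe sets.

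Comparisons used limma 3.58.1 in R 4.3.3 (lmFit, eBayes with an intensity trend; tested on simulated data). The 3 steps between normal stages came from 1 fit of 23 arrays, and the leukemic comparisons from fits of the groups compared. The members, the lists and the choice of named members (up to 6 called members per direction and 4 uncalled ones by size, and 16 preset ones; for the pathway, up to 3 called genes per direction and list) were set with earlier results of these data known. Summaries used Python 3.11.15. The alternatives left out each array, the dimmest 40% of genes, the intensity trend, or probe sets that can match several transcripts. Others used quantile normalization, averaged probe sets, a replicate block, all 39 arrays in 1 fit, and the accession run as a covariate or alone. Same-numbered normal arrays did not clearly deviate together more than other pairs of a run, so the main fits used no block.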

Additional observations from a re-analysis of the deposited data

Results flagged for a closer look

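Of 140 sets of a member in a group of 4 to 10 arrays, 3 had an array far from the others, by Dixon's test at the 95% level, where chance gives about 1 in 20. Rtp4 was at 6.71 on pre-B array 2 and at 3.52 to 4.94 on the other 7. Gbp2 was at 5.05 on immature B array 4 and at 6.70 to 7.29 on the other 5. Gbp3 was at 6.34 on the same array and at 7.65 to 8.33 on the others.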

How the results depend on the processing

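No member that was called changed sign under any alternative run. The count of members called moved by over 1.5 times as follows. With probe sets that can match several transcripts left out (24 of the 35 members remain), it was 11 for pre-B against pro-B (17), 13 for immature B against pre-B (21), 0 for mature against immature B (1) and 2 for leukemic against pro-B (4). With all 39 arrays in 1 fit, it was 8, 5, 0 and 7, and 6 for leukemic against pre-B (3). With the dimmest 40% of genes left out, it was 5 for leukemic against pre-B and 2 against pro-B, and with quantile normalization 2 against pro-B. Within accession run 1, it was 1 for each leukemic comparison, and within run 2, 7 for pre-B against pro-B. With probe sets that can match several transcripts left out, each of the 24 remaining members was called or not called as in the main fit. The lower counts of that setting thus come from the members removed. The cause of the other changes was not tested.

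Leaving out each array in turn gave 13 to 20 for pre-B against pro-B, 18 to 24 for immature B, 0 to 1 for mature B (0 in 6 of 9), 2 to 5 for leukemic against pre-B, 1 to 6 against pro-B and 0 for pIpC. With the replicate number as a replicate block, the counts were 15, 21 and 0 for the 3 normal steps. Same-numbered pairs correlated at a median of 0.249 and other pairs of a run at 0.273. With values centred within each run these medians were 0.02 and -0.03, so no clear pairing by number showed, which does not exclude one. Alternatives chosen after seeing the data were leaving out leukemic arrays 116 and 122 (5 and 7 called), run 2 alone for mature B (0), and the closest array pairs averaged (0 for mature B, 1 for leukemic against pro-B). Members that kept their call under every alternative that measured them numbered 6 of 17, 5 of 21, 0 of 1, 0 of 3 and 1 of 4 in the order pre-B, immature B, mature B, leukemic against pre-B and against pro-B.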
